A study of Mus musculus with 14 samples.

Results

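Livers of 5 mice on a high-calorie diet were compared with livers of 5 mice on a standard diet, 10 of the 14 arrays of the series. The arrays were chosen by their titles, and all genes of the array were described. All mice were male C57BL/6 animals aged 1 year that fed without restriction. The standard-diet group ate AIN-93G, a purified rodent diet, and the high-calorie group ate AIN-93G changed so that 60% of its calories came from fat. Another 4 mice ate the high-calorie food with 0.04% of the plant polyphenol resveratrol and enter here only through the shared estimate of spread and a few values given side by side. On each array RNA of 1 liver, in Cy3, competed with pooled RNA of 5 livers from the standard diet, in Cy5, so a level below is the log2 ratio of animal to pool, and a difference is high-calorie minus standard in log2 units with its standard error (SE). The comparison asks how the liver transcriptome of mice on a high-fat, high-calorie diet differs from that of mice on the standard diet.

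The liver makes most plasma proteins, clears nitrogen as urea and glutamine, stores and releases glucose, oxidises or esterifies fatty acids, and modifies foreign and internal chemicals for excretion. Its hepatocytes divide these tasks along the path of blood from the portal to the central vein. A diet rich in fat is known to load hepatocytes with triglyceride and to activate lipid-sensing nuclear receptors. All 4 hepatocyte markers on the array (of 5 fixed) were well above background on all 10 arrays. So were all 6 Kupffer cell markers, all 6 adipocyte markers and most probes, so this does not test the tissue label.

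After a filter on dim probes 32675 genes were tested, 15236 of them with a current symbol and the rest under the name given by the array, and 3082 differed at a limma adjusted p under 0.05, which is 9.43% of them. Of all genes tested 5.37% rose and 4.06% fell. Of the genes with a symbol, from which the gene groups below are drawn, 11.5% were called, 7.27% as rises and 4.2% as falls, so a group's count is read against these shares. On the levels of the single arrays both groups did not overlap for 10.3%. Most differences were small, since 2679 of the 3082 were at most 1.5-fold, and 78 genes rose and 29 fell by more than 2-fold. The high-calorie arrays were on the whole brighter: the median net Cy3 signal was 57.7 to 114 intensity units against 48.6 to 85.6 in the standard group, and 83.5% to 91.8% of probes were well above background against 77.8% to 88.2%. Standard-diet replicate 5 stood apart from its group, with a score of 1.39 on the first principal component, where the other 4 standard-diet arrays lay between -29.2 and -15.4 and the high-calorie arrays between 12.2 and 20.5. Without that array 5993 genes were called, and leaving out any other single array gave 1374 to 2372. With Cy3 brightness as a covariate 464 genes were called. With the arrays centred on their median instead of loess 3031 were called, and 79% of them were higher against 56.9% with loess. There 636 genes fell against 1327 with loess. Numbers in parentheses after the count of a gene group are its rises and its falls, in that order, in these other fits, centred on the median or with brightness. Of 193 called genes named below 42 missed the threshold when centred and 97 with brightness, and the last sentence on each set of genes names them. With the Cy3 channel alone the difference was more than 1.5 times as large for 31 of the 193 and more than 1.5 times smaller for 6, Serpina3c and Mug1 among the latter.

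**Figure D1:**
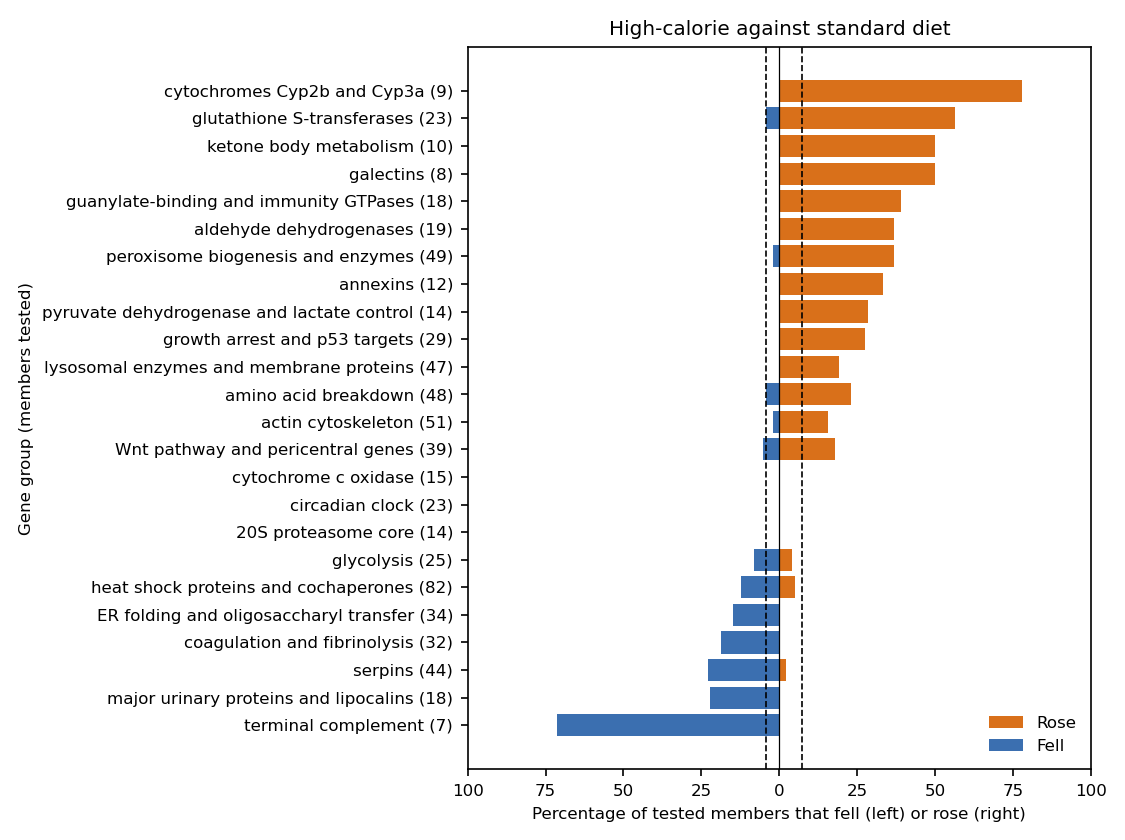
Percentage of tested members that rose (right) or fell (left) in 24 gene groups, at a limma adjusted p under 0.05, with the number of tested members in parentheses. Dashed lines mark the background of the 15236 genes with a symbol, 7.27% rising and 4.2% falling. Cytochromes Cyp2b and Cyp3a, glutathione S-transferases, galectins and ketone body genes lie farthest to the right, and terminal complement lies farthest to the left.

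Genes of the last step of complement were lower on the high-calorie diet. The terminal components assemble into a pore in the membrane of a microbe, and hepatocytes secrete most of them. Of 7 tested genes of the terminal pathway 5 fell and none rose (0 and 2 centred, 0 and 2 with brightness), and the median difference was -0.62. For C8b, a subunit of that pore, the standard-diet arrays read -0.35, -0.55, 0.12, -0.31 and -0.38 and the high-calorie arrays -2.15, -1.72, -2.00, -1.76 and -1.84. The groups did not overlap, and C8b fell by 1.60 ± 0.21, which is 3.03-fold (adjusted p = 0.00048). Vtn, whose product vitronectin keeps the pore from inserting into host cells, fell by 0.84 ± 0.19 (adjusted p = 0.0162). Hc, which encodes C5, fell by 0.62 ± 0.17 and C6 by 0.50 ± 0.14. C9 stood at -0.41 ± 0.16 and did not pass (adjusted p = 0.104). Hc missed the threshold in 9 of the 10 fits that each left out 1 array and C6 in 8 of them (adjusted p up to 0.0916 and 0.0994). Vtn, Hc and C6 missed the threshold both when centred and with brightness.

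Of 32 coagulation and fibrinolysis genes 6 fell and none rose (0 and 0 centred, 0 and 2 with brightness), with a median of -0.21 that turned to 0.03 when centred. Proc, the precursor of the anticoagulant protein C, fell by 0.67 ± 0.10 (adjusted p = 0.00169), Kng1, which encodes kininogen, by 0.69 ± 0.14, F10 by 0.61 ± 0.15, F11 by 0.43 ± 0.10, Serpinc1, the gene of antithrombin, by 0.36 ± 0.06 and F12 by 0.24 ± 0.06. F10 missed the threshold in 5 of the 10 fits that each left out 1 array and F11 in 3 of them (adjusted p up to 0.055 and 0.0606). When centred, the fitted values of Serpinc1 and F12 turned to 0.11 and 0.10. Kng1, F10, F11 and F12 missed the threshold both when centred and with brightness, and Proc and Serpinc1 with median centring alone.

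Among 44 serpins, a family that traps and inactivates proteases, 10 fell and 1 rose (3 and 4 centred, 0 and 3 with brightness). The largest fall was in Serpina3k, for which the standard-diet arrays read -0.21, 0.24, 0.14, -0.08 and -0.28 and the high-calorie arrays -1.40, -0.86, -1.23, -1.32 and -1.16. No high-calorie array reached the lowest standard-diet array, and Serpina3k fell by 1.15 ± 0.14 (2.22-fold, adjusted p = 0.000393). Its neighbours in the family Serpina3m and Serpina3c fell by 0.96 ± 0.20 and 0.89 ± 0.13, and Serpina11 by 0.88 ± 0.15. Serpina3 genes are near-identical copies, so their probes may share signal. Serpina1b, one of the mouse alpha-1-antitrypsin genes, fell by 0.68 ± 0.16, and Serpinb1a, an intracellular inhibitor of neutrophil proteases, rose by 0.84 ± 0.25. Serpina1b missed the threshold in 4 of the 10 fits that each left out 1 array and Serpinb1a in 8 of them (adjusted p up to 0.06 and 0.107). Itih2 and Mug1, protease inhibitor genes of the plasma outside the family, fell by 0.46 ± 0.09 and 0.51 ± 0.11, and when centred stood at -0.16 and -0.05. Serpina3m, Serpina1b, Itih2 and Mug1 missed the threshold both when centred and with brightness, Serpina3c with median centring alone and Serpina11 and Serpinb1a with brightness alone.

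Of 32 hepatokines and circulating regulators 3 rose and 5 fell (6 and 2 centred, 2 and 2 with brightness), so the balance of rises and falls turned with the scaling. Igfbp2 encodes a binding protein of insulin-like growth factors. Its levels: the standard-diet arrays read 2.22, 1.01, 1.85, 1.46 and 1.32 and the high-calorie arrays 0.01, 0.19, 0.40, -0.13 and -0.31. The groups were separate, and Igfbp2 fell by 1.54 ± 0.23 (2.9-fold, adjusted p = 0.00127). Inhba, the beta A chain of activin, fell by 0.90 ± 0.14 (adjusted p = 0.00149). Hgfac, the protease that activates hepatocyte growth factor and no member of that list, fell by 0.46 ± 0.06. Gdf15, a stress hormone that reduces appetite, rose by 0.82 ± 0.12 (adjusted p = 0.00136) with no overlap between the groups. Lect2, a secreted protein of hepatocytes, rose by 0.62 ± 0.15. Lect2 missed the threshold without standard-diet replicate 3 or high-calorie replicate 5 (adjusted p up to 0.0566). Fgf21, a fasting hormone of the liver, stood at -0.24 ± 0.18 and did not pass. Hgfac missed the threshold with median centring alone, and Lect2 with brightness alone.

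**Figure D2:**
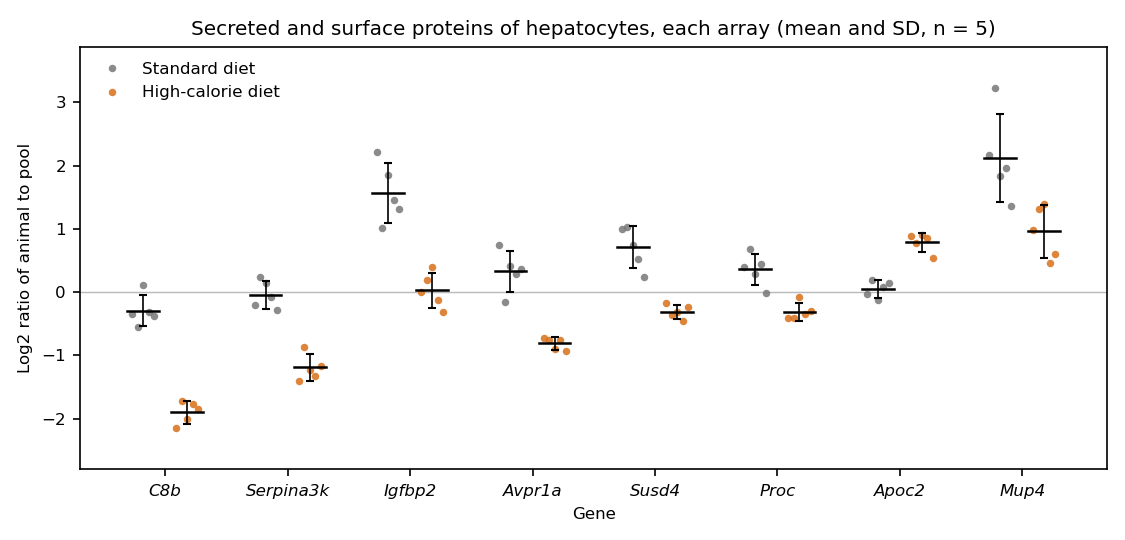
Log2 ratio of animal to pool on each array for 8 genes of secreted or surface proteins of hepatocytes, standard-diet mice in grey and high-calorie mice in orange; points are arrays, bars are means and whiskers are SD (n = 5 each). In C8b, Serpina3k, Igfbp2, Avpr1a, Susd4 and Proc the high-calorie points all lie below the standard-diet points, in Apoc2 they all lie above, and in Mup4 the groups overlap.

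Of 44 apolipoprotein and lipoprotein assembly genes 5 rose and 2 fell (7 and 0 centred, 1 and 0 with brightness). Apoc2, the cofactor of lipoprotein lipase, rose by 0.74 ± 0.08 (adjusted p = 0.000186), and Apoa4, an apolipoprotein that rises with fat in the liver and gut, rose by 1.00 ± 0.23 although the groups overlapped. Apoa1, the main protein of high-density lipoprotein and one of the hepatocyte markers, fell by 0.64 ± 0.17. Apoa1 missed the threshold in 7 of the 10 fits that each left out 1 array (adjusted p up to 0.0943). Of 18 major urinary protein and lipocalin genes 4 fell and none rose (0 and 3 centred, 0 and 1 with brightness). Mup4 fell by 1.16 ± 0.28 and Mup1 by 1.08 ± 0.28, with overlap in both, and both probes were saturated on 4 arrays and belong to a family of near-identical genes. Mup4 missed the threshold without high-calorie replicate 4 or high-calorie replicate 5 and Mup1 in 4 of the 10 fits that each left out 1 array (adjusted p up to 0.064 and 0.0764). Apoa1 missed the threshold both when centred and with brightness, and Apoa4, Mup4 and Mup1 with brightness alone.

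Receptors as a group were near or below the background share: of 42 adrenergic, glucagon and other hormone receptors 2 rose and 3 fell (5 and 1 centred, 0 and 1 with brightness), which is 11.9%, and of 70 interleukins and their receptors none rose and 4 fell (2 and 2 centred, 0 and 0 with brightness), which is 5.71%. Single receptors are given below. For Avpr1a, the vasopressin receptor of the liver, the standard-diet arrays read 0.75, -0.15, 0.41, 0.29 and 0.36 and the high-calorie arrays -0.72, -0.75, -0.90, -0.76 and -0.93. The groups did not overlap, and Avpr1a fell by 1.15 ± 0.16 (2.21-fold, adjusted p = 0.000798). Lifr, the receptor of leukaemia inhibitory factor, fell by 0.81 ± 0.17 (adjusted p = 0.0123), although 1 dimmer probe of the gene stood at 0.50 and did not pass. Il11ra1, a receptor of interleukin 11, fell by 0.42 ± 0.09. Prlr, the prolactin receptor, rose by 0.60 ± 0.15, while its other probe stood at 0.07 and did not pass. Prlr missed the threshold in 5 of the 10 fits that each left out 1 array (adjusted p up to 0.0667). Susd4, a membrane inhibitor of complement, fell by 1.02 ± 0.14 and Ttc39c, of unsettled function, by 1.18 ± 0.12 (2.26-fold, adjusted p = 0.000102), but the other probe of Ttc39c stood at 0.08. Il11ra1 missed the threshold both when centred and with brightness, Lifr with median centring alone and Prlr with brightness alone.

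Most secreted proteins pass through the folding apparatus of the endoplasmic reticulum (ER). Of 34 ER folding and oligosaccharyl transfer genes 5 fell and none rose (0 and 0 centred, 0 and 1 with brightness), and the median was -0.24. Mogs, which trims the first glucose from new glycans, fell by 0.65 ± 0.14, Ppib, an ER prolyl isomerase, by 0.56 ± 0.10, Dnajc3, a cochaperone that also restrains the kinase PERK, by 0.56 ± 0.15, Fkbp11, another prolyl isomerase, by 0.35 ± 0.09 and Ganab, which trims the next glucoses, by 0.21 ± 0.06. Outside that list Prdx4, the ER peroxiredoxin, fell by 0.51 ± 0.11. In the translocon, through which new chains enter the ER, Sec61a1 fell by 0.61 ± 0.17 and Ssr4 by 0.41 ± 0.08. The other probes of Mogs (-0.10), Ppib (-0.27), Fkbp11 (-0.51), Sec61a1 (-0.19) and Dnajc3 (-0.08, -0.34 and -0.49) did not pass. Dnajc3 missed the threshold in 7 of the 10 fits that each left out 1 array, Fkbp11 in 6 of them, Ganab in 8 of them and Sec61a1 in 8 of them (adjusted p up to 0.0818, 0.0842, 0.12 and 0.0934). Mogs, Dnajc3, Fkbp11, Ganab, Prdx4 and Sec61a1 missed the threshold both when centred and with brightness, and Ppib and Ssr4 with median centring alone.

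The ER stress element, CCAAT and CCACG spaced by 9 bases (searched on both strands), is the textbook site through which unfolded protein sensors act on chaperone genes. In the 250 bases before the start site it was present in 0.132% of the 12118 tested genes with a RefSeq window (GRCm38.p6), and in 7 of the 29 ER folding genes with a window. The windows of 5 of these are shown as examples, without those of Hsp90b1 and Ero1b. The windows are given 5′ to 3′ on the strand of the gene, with the element or its reverse complement in capitals.
Hspa5: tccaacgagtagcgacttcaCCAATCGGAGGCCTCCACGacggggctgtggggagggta
Calr: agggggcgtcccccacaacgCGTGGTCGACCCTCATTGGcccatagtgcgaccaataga
Canx: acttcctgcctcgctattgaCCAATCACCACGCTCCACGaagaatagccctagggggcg
Dnajc3: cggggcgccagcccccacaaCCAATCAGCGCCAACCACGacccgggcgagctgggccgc
Creld2: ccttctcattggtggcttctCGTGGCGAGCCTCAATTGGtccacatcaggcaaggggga
Hspa5 lies at chr2:34772005-34772063 (plus strand), Calr at chr8:84847055-84847113 (minus strand), Canx at chr11:50325780-50325838 (minus strand), Dnajc3 at chr14:118937807-118937865 (plus strand) and Creld2 at chr15:88819500-88819558 (plus strand). Dnajc3 alone of the 7 passed in the fit over all 14 arrays. Creld2, an ER protein induced by unfolded proteins, had the largest spread: the standard-diet arrays read -0.55, 1.21, 0.96, -0.66 and 0.17 and the high-calorie arrays -1.22, -1.15, -1.42, -1.01 and -0.89. All high-calorie arrays were below all standard-diet arrays, yet with a standard-diet range that wide the difference of -1.36 ± 0.41 did not pass (adjusted p = 0.0527). Hspa5, the main ER chaperone BiP, stood at -0.70 ± 0.24 (adjusted p = 0.0794), Calr, a calcium-binding chaperone, at -0.38 ± 0.12, Hsp90b1 at -0.55 ± 0.22, Ero1b, an oxidase of the folding pathway, at -0.55 ± 0.17, and Canx, the membrane-bound partner of Calr, at 0.19 ± 0.09. Apart from Canx these values were below 0, and none of them passed in the fit over all 14 arrays. In the limma fit of both groups alone Creld2 (-1.36 ± 0.33, adjusted p = 0.0285) and Hspa5 (-0.70 ± 0.19, adjusted p = 0.0394) passed. Calr, Hsp90b1, Ero1b and Canx did not pass there (adjusted p = 0.0524, 0.132, 0.0796 and 0.219).

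Among 82 heat shock and cochaperone genes 4 rose and 10 fell (9 and 1 centred, 1 and 0 with brightness), so the balance turned with the scaling. Hspa8, the constitutive cytosolic chaperone Hsc70, fell by 0.88 ± 0.17 (1.85-fold, adjusted p = 0.0076), and its cofactors Bag3 and Dnajb1 by 0.60 ± 0.17 and 0.53 ± 0.16. Of the mitochondrial members Hspd1 and Hspe1, the chamber and the lid of the matrix folding machine, rose by 0.35 ± 0.07 and 0.35 ± 0.09, and Grpel2, a nucleotide exchange factor of mitochondrial Hsp70, rose by 0.59 ± 0.13. The other probes of Grpel2 (0.10), Dnajb1 (-0.09) and Hspd1 (0.41) did not pass. Bag3 missed the threshold in 7 of the 10 fits that each left out 1 array, Dnajb1 in 9 of them and Hspe1 in 8 of them (adjusted p up to 0.107, 0.115 and 0.0955). Hspa8, Bag3 and Dnajb1 missed the threshold both when centred and with brightness, and Hspd1, Hspe1 and Grpel2 with brightness alone.

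Some galectins, annexins and their partners at the cell surface rose on the high-calorie diet. Galectins are small lectins that bind galactose on surface glycoproteins. All 8 tested galectin genes had positive differences, 4 rose and none fell (3 and 0 centred, 4 and 0 with brightness), with a median of 0.36. The largest was Lgals1, for which the standard-diet arrays read -1.07, -0.91, -1.27, -0.99 and -0.88 and the high-calorie arrays 1.06, 0.70, 0.94, 0.84 and 0.77. The lowest high-calorie array was above the highest standard-diet array, and Lgals1 rose by 1.89 ± 0.20 (3.7-fold, adjusted p = 0.000112). Lgals3bp, a secreted ligand of galectins, rose by 0.67 ± 0.11 and Lgals8 by 0.46 ± 0.07.

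Annexins bind acidic phospholipids in the presence of calcium. Of 12 tested 4 rose and none fell (5 and 0 centred, 2 and 0 with brightness). For Anxa2, the standard-diet arrays read -0.22, -0.47, -0.29, -0.32 and -0.57 and the high-calorie arrays 0.97, 0.64, 0.92, 1.10 and 0.87. These groups were far apart for their spread, and Anxa2 rose by 1.27 ± 0.09 (2.41-fold, adjusted p = 7.75e-06). S100a10 encodes the partner with which Anxa2 forms a tetramer under the plasma membrane. For S100a10, the standard-diet arrays read -0.84, -0.65, -0.94, -0.87 and -0.54 and the high-calorie arrays 0.50, 0.28, 0.42, 0.34 and 0.34. It rose by 1.15 ± 0.12 (2.22-fold, adjusted p = 0.000102) without overlap, the single call among 14 S100 genes. Anxa5 rose by 0.71 ± 0.08.

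**Figure D3:**
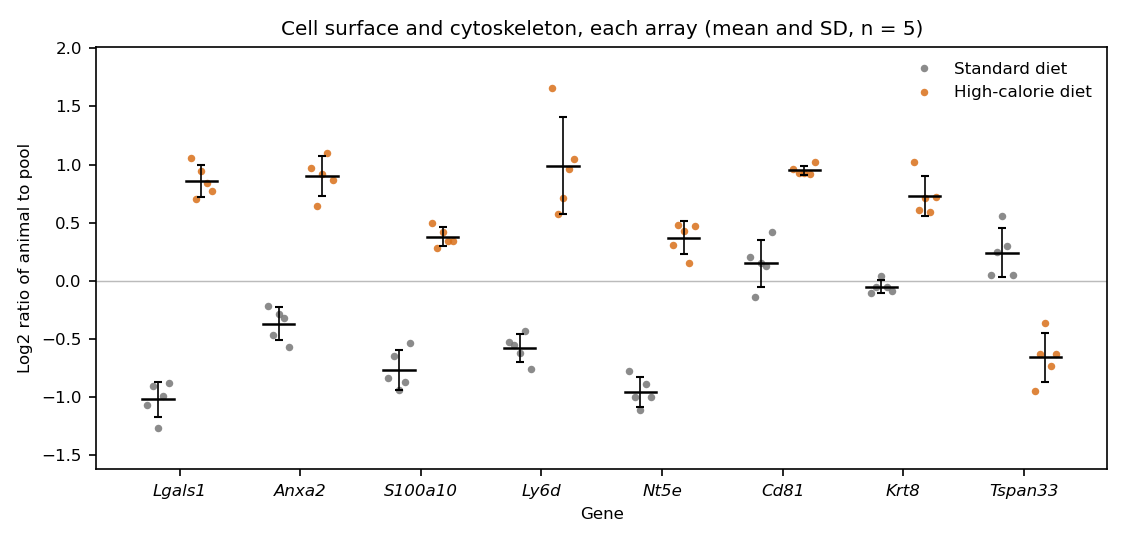
Log2 ratio of animal to pool on each array for 8 genes of the cell surface and cytoskeleton, standard-diet mice in grey and high-calorie mice in orange; points are arrays, bars are means and whiskers are SD (n = 5 each). In Lgals1, Anxa2, S100a10, Ly6d, Nt5e, Cd81 and Krt8 the groups do not overlap and the high-calorie arrays are higher, and in Tspan33 they are lower.

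Of 24 tetraspanins, which organise membrane microdomains, 4 rose and 1 fell (8 and 1 centred, 1 and 1 with brightness). Cd81 rose by 0.80 ± 0.09 (adjusted p = 0.000258) and Cd151 by 0.38 ± 0.07, while Tspan33 fell by 0.90 ± 0.11 (adjusted p = 0.000433). Ly6d, a small lipid-anchored surface protein, rose by 1.57 ± 0.19 (2.96-fold). Heparan sulfate carriers Gpc1 and Sdc1 rose by 0.94 ± 0.12 and 0.89 ± 0.14, Sdc1 being the hepatic receptor that clears triglyceride-rich remnants. Of 33 tubulin and microtubule genes 4 rose and 1 fell (6 and 0 centred, 1 and 0 with brightness), led by Tubb6 at 0.86 ± 0.12 and Tubb2a at 0.69 ± 0.13. Krt8, the hepatocyte keratin that aggregates in fatty liver disease, rose by 0.78 ± 0.09 (adjusted p = 0.000242), and 3 of 16 intermediate filament genes rose (2 and 1 centred, 1 and 0 with brightness). Of 51 actin cytoskeleton genes 8 rose and 1 fell (16 and 0 centred, 1 and 0 with brightness), with Tpm1 at 0.55 ± 0.11. The other probe of Tpm1 stood at 0 and did not pass. Spp1, the gene of osteopontin, which bile duct cells and activated macrophages also make, rose by 0.76 ± 0.17. Cd151, Tubb2a, Tpm1 and Spp1 missed the threshold with brightness alone.

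Of 11 urea cycle and ammonia genes 2 rose and none fell (3 and 0 centred, 1 and 0 with brightness), and of 39 Wnt pathway and pericentral genes 7 rose and 2 fell (8 and 2 centred, 2 and 0 with brightness), the latter with a median of 0.05. Cells around the central vein take up ammonia that escaped the urea cycle and fix it as glutamine. For Oat, which turns ornithine into glutamate semialdehyde and is a pericentral gene, the standard-diet arrays read -1.68, -0.90, -1.17, -1.04 and -1.10 and the high-calorie arrays 0.45, -0.02, 0.09, 0.31 and 0.63. The groups did not overlap, and Oat rose by 1.47 ± 0.21 (2.77-fold, adjusted p = 0.00109). Rhbg, the ammonia channel of the same cells, rose by 0.89 ± 0.13 (adjusted p = 0.00106), Glul, glutamine synthetase, by 0.60 ± 0.16 and Slc1a2, a glutamate transporter, by 0.52 ± 0.14. Other probes of Slc1a2 stood at 0.03, 0.04 and 0.23, and only the last of these passed. Glul missed the threshold in 4 of the 10 fits that each left out 1 array and Slc1a2 in 8 of them (adjusted p up to 0.0835 and 0.103). Cyp1a2, also pericentral, fell by 0.44 ± 0.11, and neither Cyp2e1 at 0.25 ± 0.10 nor Axin2, a Wnt target, at 0.20 ± 0.09 passed. Cyp1a2 missed the threshold in 5 of the 10 fits that each left out 1 array (adjusted p up to 0.0694). Of 16 periportal genes 1 rose and 1 fell (3 and 1 centred, 1 and 1 with brightness), with Aldh1b1 as the rise and Cdh1 as the fall, and Hal stood at -0.12 ± 0.17 and Cyp2f2 at 0.07 ± 0.14. The rises were thus not shared by all pericentral markers. Glul, Slc1a2 and Cyp1a2 missed the threshold with brightness alone.

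Amino acid breakdown genes rose more often than they fell, 11 against 2 of 48 (19 and 0 centred, 3 and 0 with brightness), with a median of 0.18. Gpt2, the mitochondrial alanine aminotransferase, rose by 0.90 ± 0.14 (adjusted p = 0.00196) and Gldc, of the glycine cleavage system, by 0.63 ± 0.11. Outside that list Bhmt and Bhmt2, which remethylate homocysteine, rose by 0.79 ± 0.18 and 0.52 ± 0.11. Gldc and Bhmt2 missed the threshold with brightness alone.

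Glucose genes did not move as one group: of 25 glycolysis genes 1 rose and 2 fell (4 and 1 centred, 1 and 1 with brightness). Hk2, the hexokinase that liver normally expresses little, rose by 0.93 ± 0.10 (adjusted p = 0.000198), from a probe well above background on 1 of the 5 standard-diet and all 5 high-calorie arrays. With Cy3 alone its difference was 2.51, so the size of this rise depends on the setting. Slc37a4, the glucose-6-phosphate carrier of the ER, fell by 0.49 ± 0.07 (adjusted p = 0.000931) and Gpi1, of glycolysis, by 0.39 ± 0.10, and when centred they stood at -0.16 and -0.06. Glycogen genes Gbe1, the branching enzyme, and Gyg, glycogenin, rose by 1.05 ± 0.25 and 0.54 ± 0.08. Gpi1 missed the threshold in 3 of the 10 fits that each left out 1 array and Gbe1 without high-calorie replicate 5 (adjusted p up to 0.0632 and 0.0536). Insr, the insulin receptor, stood at -0.01 ± 0.04 (adjusted p = 0.866). Gpi1 missed the threshold both when centred and with brightness, Slc37a4 with median centring alone and Gbe1 with brightness alone.

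The lists of pyruvate dehydrogenase and lactate control and of ketone body genes showed more rises. Of 14 genes of pyruvate dehydrogenase and lactate control 4 rose and none fell (8 and 0 centred, 1 and 0 with brightness), with a median of 0.25. Pdk4, the kinase that switches pyruvate dehydrogenase off when fat is burned, rose by 1.10 ± 0.18 (2.14-fold, adjusted p = 0.0023). Mpc1, a subunit of the mitochondrial pyruvate carrier, rose by 0.70 ± 0.12. Of 10 ketone body genes, carriers included, 5 rose and none fell (6 and 0 centred, 3 and 1 with brightness), with a median of 0.40. Bdh1, which makes hydroxybutyrate, rose by 0.78 ± 0.17. The monocarboxylate transporter Slc16a7 rose by 1.22 ± 0.19 (2.33-fold) and Slc16a1, which exports ketone bodies and lactate, by 0.57 ± 0.11. Mpc1, Bdh1 and Slc16a1 missed the threshold with brightness alone.

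**Figure D4:**
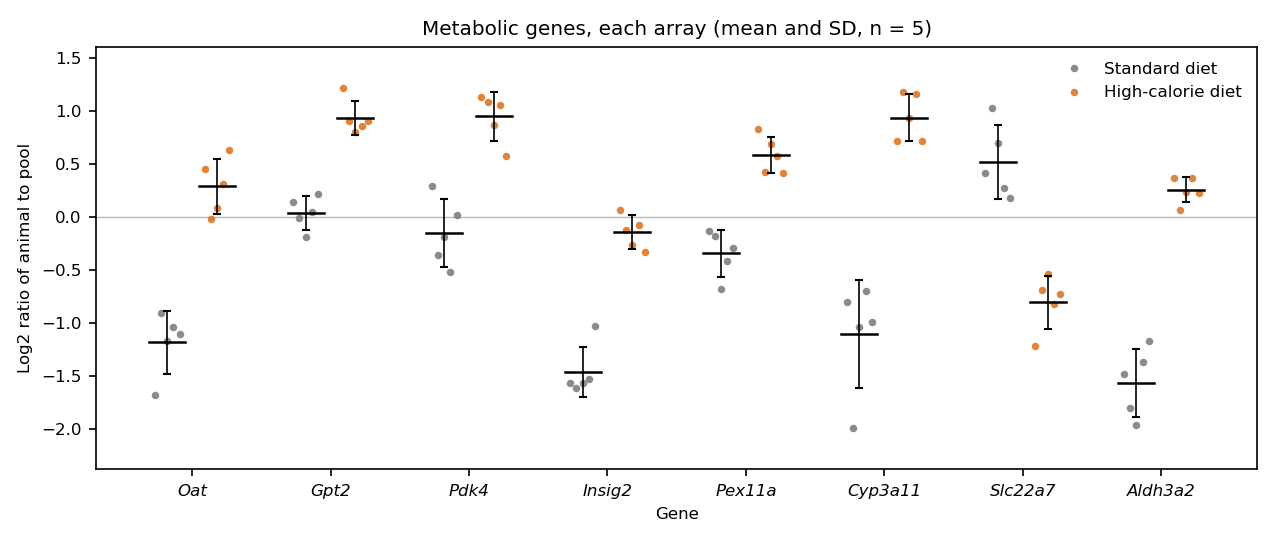
Log2 ratio of animal to pool on each array for 8 metabolic genes, standard-diet mice in grey and high-calorie mice in orange; points are arrays, bars are means and whiskers are SD (n = 5 each). Slc22a7 is lower on every high-calorie array than on any standard-diet array, and the other 7 genes are higher.

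Of 29 fatty acid binding and transport genes 4 rose and none fell (8 and 1 centred, 2 and 0 with brightness). Fabp4, the fatty acid binding protein of fat cells and macrophages, rose by 1.60 ± 0.31 (3.03-fold, adjusted p = 0.00663), on 2 of its 3 probes, and Fabp2, the intestinal form, by 1.37 ± 0.33. Fabp2 missed the threshold without standard-diet replicate 3 or standard-diet replicate 4 (adjusted p up to 0.0572). Other adipocyte markers gave mixed values: Adipoq stood at -0.09 ± 0.11, Lep at 0.11 ± 0.04 and Plin1 at -0.08 ± 0.04, none of which passed, and Retn fell by 0.20 ± 0.05. Retn missed the threshold in 5 of the 10 fits that each left out 1 array (adjusted p up to 0.0674). The whole set of 6 adipocyte markers had a mean ratio of -0.35 to -0.24 on standard-diet and 0.22 to 0.33 on high-calorie arrays, with 2 rises (Cidec and Fabp4) and 1 fall. The median difference of the set was 0.011, so its separate means do not stand for most of its members. The part of fat cells in the Fabp4 rise was not tested. Ttpa, the vitamin E carrier of the hepatocyte, rose by 1.15 ± 0.18 (2.21-fold, adjusted p = 0.00179). Retn missed the threshold both when centred and with brightness, and Fabp2 with brightness alone.

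Lipid synthesis changed in single steps. Of 29 lipogenesis genes and regulators 5 rose and 1 fell (5 and 1 centred, 1 and 0 with brightness). Insig2 encodes the ER anchor that holds back the sterol sensor SCAP. For Insig2, the standard-diet arrays read -1.56, -1.61, -1.56, -1.53 and -1.03 and the high-calorie arrays 0.07, -0.12, -0.26, -0.07 and -0.33. All high-calorie arrays were higher, and Insig2 rose by 1.32 ± 0.12 (2.49-fold, adjusted p = 6.12e-05), on both of its probes. Elovl5 and Fads2, which elongate and desaturate polyunsaturated fatty acids, rose by 1.10 ± 0.20 and 0.67 ± 0.14. Elovl3, which makes very long saturated chains and is higher in males, fell by 1.08 ± 0.22 with some overlap (adjusted p = 0.00959). Of 36 triglyceride genes 5 rose and none fell (8 and 0 centred, 2 and 0 with brightness). Gpat3, an acyltransferase of the first step, rose by 0.60 ± 0.06 (adjusted p = 0.000102), Mogat1, of the monoacylglycerol route, by 0.47 ± 0.06 and Gk, glycerol kinase, by 0.63 ± 0.12. Of 31 phospholipid genes 6 rose and none fell (8 and 1 centred, 3 and 0 with brightness). Chpt1, of the last step of phosphatidylcholine synthesis, rose by 0.61 ± 0.09 and Crls1, cardiolipin synthase, by 0.40 ± 0.09. Elovl5, Fads2, Elovl3, Gk and Crls1 missed the threshold with brightness alone.

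Peroxisomes shorten very long fatty acids and take part in making ether lipids and bile acids. Of 49 peroxisome genes 18 rose and 1 fell (21 and 0 centred, 7 and 1 with brightness), with a median of 0.19, against 7.27% rising and 4.2% falling over all genes with a symbol. For Pex11a, which drives division of the organelle, the standard-diet arrays read -0.13, -0.18, -0.68, -0.41 and -0.29 and the high-calorie arrays 0.83, 0.43, 0.69, 0.58 and 0.42. The groups were separate, and Pex11a rose by 0.93 ± 0.15 (1.91-fold, adjusted p = 0.00212). Acaa1b and Ehhadh, of peroxisomal fatty acid oxidation, rose by 1.38 ± 0.32 and 1.14 ± 0.25. Hsd17b4, another bifunctional enzyme, rose by 0.62 ± 0.10, Crot, which exports shortened chains as carnitine esters, by 0.63 ± 0.12, Decr2, a reductase for unsaturated chains, by 0.57 ± 0.10 and Pex16, of membrane assembly, by 0.46 ± 0.07. The fall was Nudt7, a peroxisomal hydrolase of coenzyme A, by 0.77 ± 0.21. Acaa1b missed the threshold without standard-diet replicate 3 and Nudt7 in 6 of the 10 fits that each left out 1 array (adjusted p up to 0.0518 and 0.078). Without any 1 array 12 to 23 members rose. Among 18 acyl-CoA thioesterases 5 rose and none fell (6 and 0 centred, 1 and 0 with brightness), led by Acot1 at 1.16 ± 0.30. Acot1 missed the threshold in 8 of the 10 fits that each left out 1 array (adjusted p up to 0.0776). Nudt7 missed the threshold with median centring alone, and Acaa1b, Ehhadh, Crot and Acot1 with brightness alone.

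In mitochondria 5 of 39 Slc25 carriers of substrates rose and 1 fell, with a median of 0.02. When centred 6 of these carriers rose and none fell. The respiratory chain had few calls. Slc25a10, the dicarboxylate carrier, rose by 0.88 ± 0.13 (adjusted p = 0.00136) and Slc25a20, which brings in acylcarnitines, by 0.50 ± 0.08. Crat, which frees coenzyme A from acetyl groups and is no carrier, rose by 0.85 ± 0.12. Of 31 complex I genes 2 rose, of 14 of complexes II and III 1, of 18 ATP synthase genes 1, and of 15 cytochrome c oxidase genes none, with no falls in any of them. For cytochrome c oxidase limma gave 1 gene at an unadjusted p under 0.05 and a median of -0.01. The lists of the respiratory chain depend on the scaling: with median centring the medians were 0.39, 0.47, 0.39 and 0.31, and 10, 6, 3 and 0 genes rose.

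The drug-metabolising cytochromes of the Cyp2b and Cyp3a families had the largest share of rises among the 24 groups plotted. Of 9 Cyp2b and Cyp3a genes 7 rose and none fell, with a median of 1.60, and 7 rose in each fit that left out 1 array, with median centring and with brightness as a covariate. For Cyp3a11, the main hepatic Cyp3a of the mouse, the standard-diet arrays read -0.80, -1.99, -1.04, -0.70 and -0.99 and the high-calorie arrays 0.72, 1.18, 0.94, 1.16 and 0.72. The lowest high-calorie value was above the highest standard-diet value, and Cyp3a11 rose by 2.05 ± 0.29 (4.13-fold, adjusted p = 0.000811). Cyp3a25 rose by 1.60 ± 0.26, Cyp3a41a, which the list does not hold, by 1.72 ± 0.26 and Cyp2b10, the textbook target of the receptor CAR, by 0.54 ± 0.05 (adjusted p = 2.24e-05). Cyp3a probes can share signal between near-identical members. Cyp2a4 and Cyp2a5, another near-identical pair, rose by 1.74 ± 0.28 and 1.70 ± 0.28, and Cyp2a12 by 0.42 ± 0.09. Cyp2a12 missed the threshold with brightness alone.

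Some other cytochromes fell. Cyp2d9, Cyp2d10 and Cyp2d34 fell by 0.48 ± 0.09, 0.45 ± 0.09 and 0.53 ± 0.07, Cyp2d9 being a steroid hydroxylase that males express more. Cyp4f14, which inactivates leukotriene B4, fell by 0.93 ± 0.16 (adjusted p = 0.00331). Of 9 Cyp2c genes 1 rose (1 and 0 centred, 0 and 0 with brightness), Cyp2c38 by 0.44 ± 0.08. Cyp2d9 and Cyp2d10 missed the threshold both when centred and with brightness, Cyp2d34 and Cyp4f14 with median centring alone and Cyp2c38 with brightness alone.

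Glutathione S-transferases and aldehyde dehydrogenases rose in larger shares than all genes with a symbol, and sulfotransferases were near that share, with 1 rise and no fall among 13 (1 and 0 centred, 0 and 0 with brightness). Of 23 glutathione S-transferases 13 rose and 1 fell (15 and 1 centred, 5 and 1 with brightness), with a median of 0.46. Mgst3, a membrane-bound form, rose by 0.85 ± 0.13 (adjusted p = 0.00154), Gstk1, of mitochondria and peroxisomes, by 0.70 ± 0.10, and Gsta1 by 1.14 ± 0.29. Gsta1 missed the threshold in 5 of the 10 fits that each left out 1 array (adjusted p up to 0.0668). Of 19 aldehyde dehydrogenases 7 rose and none fell (8 and 1 centred, 4 and 0 with brightness). For Aldh3a2, which oxidises fatty aldehydes, the standard-diet arrays read -1.48, -1.80, -1.96, -1.37 and -1.17 and the high-calorie arrays 0.37, 0.07, 0.24, 0.37 and 0.23. The groups did not overlap, and Aldh3a2 rose by 1.81 ± 0.30 (3.51-fold, adjusted p = 0.0023). Aldh1a1, which makes retinoic acid, rose by 0.82 ± 0.11 and Aldh1b1 by 0.78 ± 0.11. Rdh16, a retinol dehydrogenase, rose by 1.33 ± 0.27 (2.51-fold) and Dhrs7, a related reductase, by 0.77 ± 0.16. Gsta1, Rdh16 and Dhrs7 missed the threshold with brightness alone.

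Of 10 UDP-glucuronosyltransferase genes 4 rose and none fell (4 and 0 centred, 0 and 0 with brightness), and with the slide series as a block 1 rose. Ugdh, which makes their cosubstrate, rose by 1.05 ± 0.18 (2.07-fold, adjusted p = 0.00288). Of 13 carboxylesterases 3 rose and 2 fell (4 and 0 centred, 0 and 1 with brightness). Ces1g and Ces2b rose by 0.87 ± 0.19 and 0.75 ± 0.17, and Ces3b fell by 0.94 ± 0.10 (adjusted p = 0.000128). The other probe of Ces2b stood at 0.05 and did not pass. Maob, a monoamine oxidase, rose by 0.89 ± 0.21, Fmo5 by 0.55 ± 0.09 and Ephx1, the microsomal epoxide hydrolase, by 0.74 ± 0.14. Ahr, the receptor of aromatic hydrocarbons, rose by 0.57 ± 0.12. Ces3b missed the threshold with median centring alone, and Ugdh, Ces1g, Ces2b, Maob, Ephx1 and Ahr with brightness alone.

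Of 38 peroxiredoxin, peroxidase, dismutase and thioredoxin genes 10 rose and 1 fell (16 and 0 centred, 2 and 0 with brightness), with a median of 0.18. Gpx4, which reduces lipid peroxides in membranes, rose by 0.74 ± 0.08 (adjusted p = 0.000198), Prdx3 of mitochondria by 0.58 ± 0.09 and Prdx6 by 0.52 ± 0.10, whereas the fall was Prdx4 of the ER, given above. The other probe of Prdx6 stood at 0.05 and did not pass. Dio1, the selenoenzyme that activates thyroid hormone, rose by 1.09 ± 0.14 (2.13-fold, adjusted p = 0.000472). Fth1, the heavy chain of ferritin, rose by 0.79 ± 0.15. Prdx6 and Fth1 missed the threshold with brightness alone.

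Of 33 genes of bile acid synthesis and FXR targets 5 rose and 3 fell (8 and 1 centred, 3 and 0 with brightness). Cyp8b1, which adds the hydroxyl group of cholic acid, rose by 0.83 ± 0.16 (adjusted p = 0.00601). For Cyp7b1, of the alternative pathway of synthesis, the standard-diet arrays read -0.42, -0.11, 0.43, -0.10 and -0.21 and the high-calorie arrays -1.24, -1.26, -1.22, -1.09 and -0.89. It fell by 1.06 ± 0.19 (2.08-fold, adjusted p = 0.00548) with no overlap. Abcb4, which flips phosphatidylcholine into bile, rose by 0.83 ± 0.10 (adjusted p = 0.000288) and Abcb11, the bile salt pump, fell by 0.43 ± 0.11 but stood at -0.01 when centred. Abcb11 missed the threshold in 5 of the 10 fits that each left out 1 array (adjusted p up to 0.0821). Nr1h4, the bile acid receptor FXR, stood at 0.29 ± 0.14 and Nr0b2, its target SHP, at 0.06 ± 0.14, and neither passed. Abcb11 missed the threshold both when centred and with brightness, and Cyp8b1 and Cyp7b1 with brightness alone.

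Transporters of organic anions and cations had 7 rises and 3 falls among 38 (7 and 2 centred, 3 and 2 with brightness). For Slc22a29, the standard-diet arrays read -0.88, -1.04, -1.01, -0.75 and -0.69 and the high-calorie arrays 0.68, 0.44, 0.66, 0.58 and 0.53. The rise of 1.45 ± 0.09 (adjusted p = 4.34e-06) came from a probe well above background on 1 of 5 standard-diet and 5 of 5 high-calorie arrays, and with Cy3 alone the difference was 3.70, so its size depends on the setting. For Slc22a7, an organic anion transporter that males express more, the standard-diet arrays read 0.42, 1.03, 0.70, 0.28 and 0.18 and the high-calorie arrays -1.21, -0.69, -0.54, -0.82 and -0.72. It fell by 1.32 ± 0.20 (2.49-fold, adjusted p = 0.0016), again without overlap. Slco1a4 rose by 0.76 ± 0.10, Slc47a1, which exports cations into bile, by 0.76 ± 0.14, and Slc22a5, the carnitine transporter, by 0.42 ± 0.07. Slc47a1 missed the threshold with brightness alone.

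Lysosomal genes rose in part: of 47 enzymes and membrane proteins 9 rose and none fell (16 and 0 centred, 2 and 0 with brightness), with a median of 0.12. For Hexa, which takes part in the breakdown of gangliosides, the standard-diet arrays read -0.13, -0.78, -0.26, -0.22 and -0.43 and the high-calorie arrays 0.66, 0.60, 0.44, 0.61 and 0.65. The groups did not overlap, and Hexa rose by 0.95 ± 0.12 (adjusted p = 0.000442). Of 40 sphingolipid genes 7 rose and none fell (10 and 0 centred, 4 and 0 with brightness). Smpdl3a, a phosphodiesterase, rose by 0.75 ± 0.12 and St3gal5, which makes the ganglioside GM3, by 0.60 ± 0.13. Nceh1, a cholesterol ester hydrolase of the ER, rose by 0.67 ± 0.12, and Lgmn, a lysosomal protease, by 0.68 ± 0.17. Lgmn missed the threshold in 6 of the 10 fits that each left out 1 array (adjusted p up to 0.0663). St3gal5, Nceh1 and Lgmn missed the threshold with brightness alone.

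Of 39 phosphate, purine and pyrimidine genes 8 rose and 2 fell (8 and 1 centred, 4 and 0 with brightness). Single enzymes that act on nucleotides are given next. Nt5e encodes CD73, which makes adenosine from AMP at the surface. For Nt5e, the standard-diet arrays read -0.78, -1.00, -1.11, -0.89 and -1.00 and the high-calorie arrays 0.31, 0.48, 0.43, 0.15 and 0.47. The groups did not overlap, and Nt5e rose by 1.33 ± 0.10 (2.51-fold, adjusted p = 1.51e-05), although the dimmer of its 2 probes stood at 0.07. Entpd5, a nucleotide phosphatase of the ER, rose by 0.77 ± 0.08 (adjusted p = 0.000102) and Enpp2, autotaxin, which makes lysophosphatidic acid, by 0.75 ± 0.09 (adjusted p = 0.000242). Of 27 genes of NAD synthesis and use 8 rose and none fell (8 and 0 centred, 0 and 0 with brightness), with Nampt, which salvages nicotinamide, at 0.71 ± 0.13. Nadk, which makes NADP and is no member of that list, rose by 0.49 ± 0.08. Nampt missed the threshold with brightness alone.

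Interferon-induced GTPases rose in part. Of 18 guanylate-binding and immunity GTPases 7 rose and none fell (6 and 0 centred, 2 and 0 with brightness), with a median of 0.30. These proteins attack the membranes around intracellular microbes. The interferon element, GAAA and GAAA spaced by 2 bases of any kind and searched on both strands of the 250 bases before the start, was present in 2.94% of the 12118 tested genes with a window and in 9 of the 10 GTPase genes with a window. Of these 9 genes 5 passed, all as rises. The windows below set 3 genes that rose beside 3 that did not pass on the probe used, so they do not show that share. They are given 5′ to 3′ on the strand of the gene, with the element or its reverse complement in capitals.
Gbp7: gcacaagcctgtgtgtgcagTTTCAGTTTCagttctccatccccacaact
Irgm1: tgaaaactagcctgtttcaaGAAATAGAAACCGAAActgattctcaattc
Irgm2: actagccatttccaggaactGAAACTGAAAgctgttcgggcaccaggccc
Gbp2: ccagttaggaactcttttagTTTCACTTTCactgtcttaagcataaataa
Gbp5: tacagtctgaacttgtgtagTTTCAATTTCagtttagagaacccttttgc
Tgtp1: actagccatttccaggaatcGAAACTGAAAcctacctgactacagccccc
Gbp7 lies at chr3:142530263-142530312 (plus strand), Irgm1 at chr11:48871421-48871470 (minus strand), Irgm2 at chr11:58214893-58214942 (plus strand), Gbp2 at chr3:142620584-142620633 (plus strand), Gbp5 at chr3:142496749-142496798 (plus strand) and Tgtp1 at chr11:48992294-48992343 (minus strand). Gbp7 rose by 0.28 ± 0.06 (0.92 with Cy3 alone), Irgm1 by 0.52 ± 0.12 and Irgm2 by 1.09 ± 0.30, while Gbp2 stood at -0.06 ± 0.04, Gbp5 at -0.02 ± 0.04 and Tgtp1 at -0.06 ± 0.06, although the dimmer probe of Tgtp1 stood at 0.22 and passed (adjusted p = 0.0388 over all probes). The element was thus present in genes that rose and in genes that did not. Irgm2 missed the threshold in 8 of the 10 fits that each left out 1 array (adjusted p up to 0.0968). Gbp6, whose promoter had no window here, rose by 0.54 ± 0.07 (adjusted p = 0.00058). Gbp7 missed the threshold both when centred and with brightness, and Irgm1 and Irgm2 with brightness alone.

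**Figure D5:**
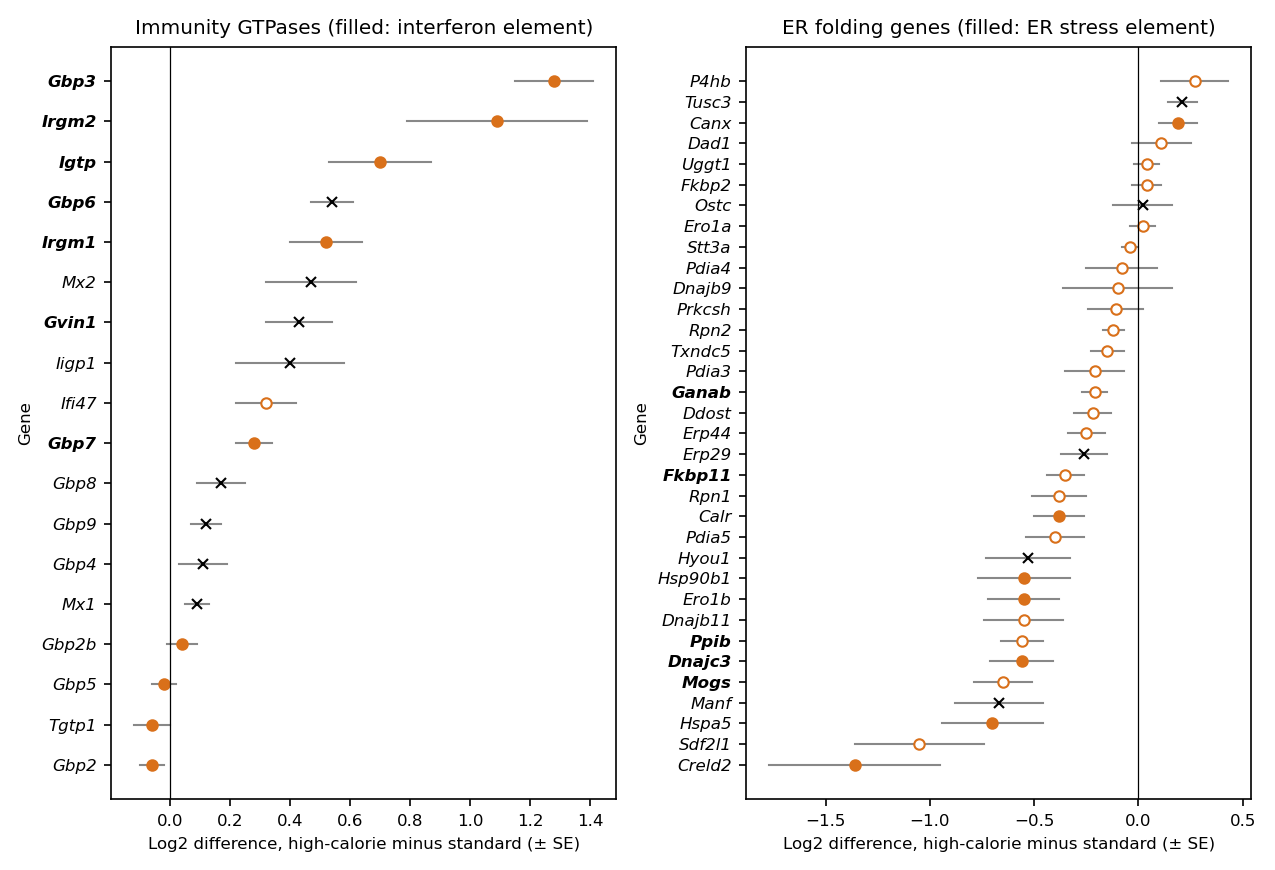
Log2 difference between high-calorie and standard-diet livers with its SE for the 18 tested guanylate-binding and immunity GTPases and the 34 tested ER folding genes, ordered by size. Filled points hold the interferon element (left) or the ER stress element (right) in the 250 bases before the start, open points do not, and crosses have no window; genes with an adjusted p under 0.05 are named in bold.

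Usp18, which limits interferon signalling, rose by 1.00 ± 0.12 (2-fold, adjusted p = 0.000379) and Irf1, a transcription factor of the response, by 0.58 ± 0.10. Of 17 MHC class I genes H2-T22 rose by 0.51 ± 0.10 and H2-M1 fell by 0.14 ± 0.04, and B2m, their shared light chain, rose by 0.39 ± 0.09. Raet1d, a stress ligand for natural killer cells with near-identical copies, rose by 1.21 ± 0.12 (2.31-fold, adjusted p = 0.000102) and Cd1d1, which presents lipids to natural killer T cells, by 0.94 ± 0.19. Of 10 class II presentation genes 4 rose and none fell (3 and 0 centred, 0 and 0 with brightness), with H2-Ab1 at 0.48 ± 0.10 on its brightest probe and H2-DMb1 at 0.49 ± 0.09. The other 2 probes of H2-Ab1 stood at -0.01 and -0.03. Cxcl9 rose by 0.51 ± 0.12 and Cxcl10 by 0.66 ± 0.17, the latter measured above background on 1 of 5 standard-diet arrays and at 2.11 with Cy3 alone, and these were the rises among 30 chemokines. H2-M1 missed the threshold in 6 of the 10 fits that each left out 1 array, B2m without standard-diet replicate 3, Cxcl9 without high-calorie replicate 5 and Cxcl10 in 5 of them (adjusted p up to 0.0629, 0.0556, 0.0517 and 0.0789). Trim24, a cofactor of nuclear receptors, rose by 0.90 ± 0.10 (adjusted p = 0.000194), and 8 of 49 tripartite motif genes rose (5 and 0 centred, 2 and 0 with brightness). H2-M1 and Cxcl10 missed the threshold both when centred and with brightness, and H2-T22, B2m, Cd1d1, H2-Ab1, H2-DMb1 and Cxcl9 with brightness alone.

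No marker of an immune cell type passed as higher. Of 9 T and NK cell markers none rose and 1 fell, and their mean ratio was -0.33 to -0.16 on standard-diet and -0.36 to -0.28 on high-calorie arrays. None of the 5 B and plasma cell markers, the 5 tested neutrophil markers or the 6 Kupffer cell markers passed, and the Kupffer means were -1.23 to -0.83 and -0.83 to -0.50. All 4 macrophage markers also missed the threshold, with means of -0.66 to -0.48 and -0.38 to -0.17, so the macrophage levels did not overlap although no single marker was called. In bulk liver more cells of a type and more RNA per cell cannot be told apart. Of 6 tested stellate markers 3 rose and 1 fell, and of 5 cholangiocyte markers 1 rose, Spp1. Of 5 sinusoidal endothelium markers 1 rose, and none of 3 erythroid, 3 pancreatic acinar or 4 skeletal muscle markers tested passed. The mean of the 4 hepatocyte markers was 0.64 to 1.10 on standard-diet and 0.31 to 0.73 on high-calorie arrays, with Apoa1 as the single fall, and the part of cell composition in these results was not tested.

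Nuclear receptors and other regulators moved in both directions. Of 41 nuclear receptors 6 rose and 2 fell (10 and 1 centred, 3 and 0 with brightness). Rxrg, a retinoid X receptor, rose by 0.49 ± 0.05 (adjusted p = 0.000126) and Rarb, a retinoic acid receptor, by 0.57 ± 0.09 (adjusted p = 0.00136). Ppara, the fatty acid receptor of liver, rose by 0.43 ± 0.12 and Nr1i3, the drug receptor CAR and no member of that list, by 0.42 ± 0.11 on the brightest probe and not on another at -0.09, whereas Nr1i2, the drug receptor PXR, stood at 0.23 ± 0.09. Ppara missed the threshold in 8 of the 10 fits that each left out 1 array and Nr1i3 in 8 of them (adjusted p up to 0.0928 and 0.0864). Rxra, the common partner of these receptors, stood at -0.01 ± 0.03. Wwtr1, the Hippo pathway coactivator TAZ, rose by 0.72 ± 0.10 (adjusted p = 0.000971), Klf6 by 0.52 ± 0.07 and Hes6 fell by 0.77 ± 0.11. The other probes of Hes6 (-0.12) and Rarb (0.10) did not pass. Stat5a, a mediator of growth hormone and prolactin signals, rose by 0.57 ± 0.11, and Stat5b stood at 0.31 ± 0.10. Cish and Socs2, its feedback genes, stood at -0.77 ± 0.53 and -0.69 ± 0.40, with levels that ran from -1.41 to 1.38 in Cish within the standard-diet group alone. Ppara, Nr1i3 and Stat5a missed the threshold with brightness alone.

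Of 29 genes of growth arrest and the p53 response 8 rose and none fell (8 and 0 centred, 2 and 0 with brightness), with a median of 0.10. Ccng1 and Phlda3, both direct p53 targets, rose by 0.52 ± 0.08 and 0.47 ± 0.07, Fas by 0.56 ± 0.11 (another probe stood at -0.17 and did not pass) and Trp53inp1 by 0.84 ± 0.20. Trp53inp1 missed the threshold in 5 of the 10 fits that each left out 1 array (adjusted p up to 0.0609). Cdkn1a, the best known target, stood at 0.19 ± 0.13 (adjusted p = 0.36). Of 44 cell cycle genes 5 rose and 1 fell (8 and 0 centred, 1 and 0 with brightness), with Cdk6 at 0.48 ± 0.07 and Mcm3 at 0.40 ± 0.09. The other probes of Cdk6 (0.04) and Mcm3 (0.05) did not pass. Fas, Trp53inp1 and Mcm3 missed the threshold with brightness alone.

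Several machineries showed no call. None of 23 circadian clock genes passed in limma (6 at an unadjusted p under 0.05), with Arntl at 0.01 ± 0.05, Dbp at 0.08 ± 0.16, Per1 at -0.08 ± 0.09 and Nr1d1 at 0.00 ± 0.10. None of 14 core and 19 regulatory proteasome genes passed (7 and 3 at an unadjusted p under 0.05), nor any of 27 fibroblast growth factor genes (7 at an unadjusted p under 0.05). Such unadjusted limma values were common, since 233 of 786 olfactory receptor genes, described below, were also under 0.05. No share over all genes at that limit is given, so these counts alone do not mark a list as changed. With median centring 2 clock, 2 core and 3 regulatory proteasome genes rose. Other genes of interest that did not pass were Angptl4 at 0.49 ± 0.24, Lpin1 at -0.05 ± 0.24, Foxo1 at 0.14 ± 0.07, Ghr at -0.04 ± 0.16, Bcl6 at 0.35 ± 0.48, Ucp2 at -0.02 ± 0.04, Egr1 at 0.50 ± 0.23, Fos at -0.02 ± 0.05, Jun at 0.49 ± 0.15, Afp at 0.00 ± 0.05 and H19 at -0.04 ± 0.06. Of these Egr1 alone passed in the limma fit of both groups alone (0.50 ± 0.12, adjusted p = 0.0309). Of 786 olfactory receptor genes, which liver is not known to use, 54 fell and 4 rose with a median of -0.04, and with median centring 5 fell and 31 rose, so the direction of such small values follows the scaling.

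Acute phase genes formed a separate case. For Saa1, serum amyloid A, the standard-diet arrays read -5.23, -4.99, -5.27, -5.20 and -5.58 and the high-calorie arrays -3.61, -3.64, -4.30, -4.17 and -4.07. All high-calorie arrays were above all standard-diet arrays and the difference was 1.30 ± 0.99, yet it did not pass (adjusted p = 0.419). The spread in that fit is shared with the resveratrol arrays. In the fit of both groups alone, with its own SE, the difference was 1.30 ± 0.15 for Saa1 (adjusted p = 0.000422), 0.85 ± 0.16 for Saa2 (adjusted p = 0.00775) and 0.70 ± 0.10 for Saa3 (adjusted p = 0.00214). Lcn2 and Hp, also acute phase genes, stood at 0.03 ± 0.62 and 0.12 ± 0.36 in the fit over all 14 arrays.

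For some of these genes the resveratrol arrays give a comparison with the same 5 high-calorie arrays, so both differences share them and are only set side by side. The high-calorie mean enters both with opposite sign. No fixed rule chose these genes and no share over all genes is given, so they do not show how often values moved back. All 4 resveratrol arrays were of image day 1, against 2 high-calorie arrays, and 3 were of slide series 1, against 2. Resveratrol minus high-calorie was 1.56 ± 0.22 for C8b (adjusted p = 0.00423), 1.11 ± 0.15 for Serpina3k (adjusted p = 0.00396), 1.34 ± 0.13 for Ttc39c (adjusted p = 0.000532) and 1.21 ± 0.21 for Cyp7b1 (adjusted p = 0.00834), where the diet difference was negative. It was -1.44 ± 0.21 for Lgals1 (adjusted p = 0.00441), -1.02 ± 0.09 for Anxa2 (adjusted p = 0.000532), -1.06 ± 0.10 for Slc22a29 (adjusted p = 0.000532) and -1.00 ± 0.13 for Usp18 (adjusted p = 0.00315), where the diet difference was positive. For Fabp4 it was -0.09 ± 0.32, for Hspa8 0.20 ± 0.18, for Inhba 0.20 ± 0.15 and for Dio1 -0.24 ± 0.15, and none of these 4 passed.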

How the data were processed

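RNA of single livers was hybridised in Cy3 against a pool of 5 standard-diet livers in Cy5, with no dye swap, on 14 Agilent arrays of 43790 spots (10 compared here). Per the file headers the authors extracted spot intensity values with Feature Extraction 7.5.1. The deposited value table holds scores of unstated scale (correlation with Cy3 intensity 0.983 to 0.985) and served as an alternative. Mean signals were background-corrected (normexp, offset 50) and loess-normalised within arrays in limma 3.58.1 (R 4.3.3), without 2256 control and 576 outlier spots. Spots of a probe were averaged, the brightest probe stood for a gene, and that probe had to exceed background clearly (Agilent's flag, Cy3) on 4 or more of the 14 arrays. Of 41174 probes 20859 matched a current symbol and 20315 kept the name in the files. One limma model over the 3 groups (14 arrays) gave differences, with Benjamini-Hochberg adjusted p under 0.05 over 32675 genes. The model was tried on simulated data with independent noise. Those data hold no brightness or array effects, so the trial does not bear on such effects here. Replicates are numbered mice of a group, and p-values measure the spread between these arrays. Motifs were searched in RefSeq promoter windows (GRCm38.p6). Members, gene lists and markers were chosen with earlier results of these data known. Named genes were up to 8 called members of each list, or 3 where none passed, the 30 largest rises and 30 largest falls with separate groups and not described before, fixed regulators, and members that show how a short pathway lay. Alternatives varied background, normalisation, filter, probes, weights, blocks, brightness and arrays. Of 68 named genes with several probes 57 agreed in sign on all probes, and 1 probe, the dimmer one of Tgtp1, passed the test with the sign opposite to the probe used. Agreement in sign includes probes near 0. Further probes that did not pass include those of Slc22a5 (0.07), Lgals8 (0.23), Cyp2d10 (-0.14), Serpinc1 (-0.17) and Retn (0.01). Images were processed on 2 days, shared unevenly by the groups. Slides were split into 2 series at the largest gap between their barcode numbers, and no label names such series. All 5 standard-diet arrays fell in series 2, and the high-calorie arrays in both. A few genes are not reported here.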

Additional observations from a re-analysis of the deposited data

Results flagged for a closer look

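For 242 named genes each group of 5 arrays was checked for 1 array whose gap to its nearest neighbour, as a share of the whole range of the group, exceeded Dixon's critical value. Of 484 such groups 26 had one, and chance gives about 1 in 20. Values below are log2 ratios of animal to pool. Standard-diet replicate 2 stood apart in 8 genes: Cyp3a11 (-1.99), Entpd5 (-0.24), Gbp2 (0.03), Gbp7 (-0.38), Mup1 (3.23), Per1 (0.17), Prdx3 (0.40) and Tpm1 (-0.45). Standard-diet replicate 5 stood apart in 6 genes: Cd1d1 (0.08), F10 (0.13), Gbp6 (-0.17), Insig2 (-1.03), Lect2 (0.17) and Raet1d (-0.15). High-calorie replicate 3 stood apart in 4 genes: F10 (0.04), Hexa (0.44), Prdx6 (0.80) and Prlr (1.13). Standard-diet replicate 1 had no such gap, and the other arrays had it in 1 or 2 genes each. High-calorie replicate 1 stood apart in Afp (-0.21) and Gpt2 (1.22). High-calorie replicate 2 stood apart in Ppara (1.12) and Slc16a7 (1.11). High-calorie replicate 4 stood apart in Bcl6 (1.31). High-calorie replicate 5 stood apart in Cyp2a12 (0.40). Standard-diet replicate 3 stood apart in Cdkn1a (-0.50). Standard-diet replicate 4 stood apart in Gpat3 (-0.24). In Cyp3a11, Insig2, Gpt2, Raet1d and Hexa the groups were separate with that array included. The causes were not tested.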

How the results depend on the processing

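Loess on all 14 arrays called 3082 genes, 1755 higher and 1327 lower. Centring on the median instead of loess left 636 lower, and turned the medians of coagulation and fibrinolysis genes (0.032) and of olfactory receptors (0.051) and the values of F12 (0.10) and Serpinc1 (0.11), with the cause not tested. Other list medians turned as well, among them glycolysis (-0.018 with loess, 0.13 centred), carboxylesterases (-0.0059 and 0.3) and Cyp4 cytochromes (-0.072 and 0.043). The Cy3 channel alone gave 413 calls (333 higher, 80 lower) and the deposited scores also 413 (331 and 82), of which 80.6% and 80.1% were higher against 56.9%. Array weights gave 7033 (3830 and 3203), the slide series as a block 1877 (680 lower), and Cy3 brightness as a covariate 464 (313 and 151). With the slide series as a block 25 named genes lost their call, and most are not marked above. Among them Apoa4, Irgm1 and Crls1 had passed without any 1 array (limma adjusted p = 0.0526, 0.0523 and 0.0525 with the block). Within image day 1 there were 1764 calls (400 lower), within image day 2 55 (44 and 11), and within slide series 2 837 (614 and 223), each with fewer arrays. Slide series 1 holds high-calorie but no standard-diet arrays, so it gives no value. Leaving out 1 array gave 1374 to 5993 calls, 870 to 3409 higher and 504 to 2584 lower. All 3082 called genes kept their sign in the fits with a block, with brightness and without 1 array, and 2677 did with median centring. The replicate block gave 2882 calls, but the correlations of same-numbered arrays were 0.16, -0.04, -0.18, 0.13 and 0.28, so the numbers were not taken to pair the mice. Of 193 named genes that passed, 154 passed without any 1 array, and 84 passed in those fits, with image day or slide series as a block, with brightness and with median centring. Aquantile leaves ratios as they are and gave the same calls. The fit of both groups alone gave 3229 calls. Of the 242 named genes 7 passed only there and 3 only in the fit over all 14 arrays. The number of arrays limits precision, and differences near background are understated.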

Other observations

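The reference channel differed from all animals in a few genes. Although the pool is labelled as 5 standard-diet livers, 7 genes read below -2 (log2 ratio of animal to pool) on all 10 arrays and 2 read above 2. The 7 include the serum amyloid genes Saa1, Saa2 and Saa3, which the liver secretes in the acute phase, and the metallothioneins Mt1 and Mt2, which bind zinc and copper. The standard-diet means were -5.26 for Saa1, -3.84 for Saa2, -5.16 for Saa3, -2.59 for Mt1 and -3.85 for Mt2. For Mt2 the standard-diet arrays read -3.80, -3.82, -3.92, -3.90 and -3.83 and the high-calorie arrays -3.47, -3.31, -3.58, -3.58 and -3.51. All high-calorie arrays of Mt2 were higher, the difference was 0.36 ± 0.84 (adjusted p = 0.815 in limma), and with both groups alone it was 0.36 ± 0.05 (adjusted p = 0.0023). Mt1 stood at 0.24 ± 0.07 in the fit of both groups alone (adjusted p = 0.0536). Above the pool lay Pigt, of the enzyme that attaches lipid anchors, at a standard-diet mean of 4.19, and Sephs2, which makes the selenium donor of selenoproteins, at 2.36. A further count at a lower limit gave 17 genes below -1 and 23 above 1 on all 10 arrays. Both groups share the pool, and the reason for its offset was not tested.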
